A study of Mus musculus with 9 samples.

Results

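The genes described here are 4 receptors, 3 ligands and 3 target genes of Notch signalling in NMuMG cells, an immortalized line of mouse mammary gland epithelium. The members were chosen by gene symbol in the transcript names: the receptors *Notch1*, *Notch2*, *Notch3* and *Notch4*, the ligands *Jag1*, *Jag2* and *Dll1*, and the targets *Hes1*, *Hey1* and *Heyl*, 10 of the 52459 gene symbols in the files. The study compared the transcriptomes of cells overexpressing the long noncoding RNA EPR (gene symbol BC030870) with those of cells that carry a mutant form of it. EPR holds a short open reading frame from which a peptide is made. In the mutant, EPRSTOPE, a point mutation in the second codon of that frame prevents the peptide, so that EPR against EPRSTOPE asks what depends on the peptide, and either one against mock cells asks what follows the transcript. All 3 groups were stable transfectants of pBICEP-CMV-2, a plasmid with a CMV promoter, which was empty in mock cells and held the full EPR transcript or its point mutant in the others. All were selected with G418 as pools rather than single clones and grown in DMEM with serum and insulin, with no further treatment. Each group has 3 libraries, numbered 203 to 205 (mock), 206 to 208 (EPR) and 209 to 211 (EPRSTOPE). The study calls them biological triplicates, but whether each library came from its own transfectant pool is not given in the sources used here, so p-values measure the spread between these libraries, which could be that of cultures of 1 pool.

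Notch receptors are single-pass membrane proteins that are activated by Jagged or Delta-like ligands on the surface of a neighbouring cell. Ligand binding exposes the receptor to cleavage by an ADAM protease and then by gamma-secretase. The freed intracellular part enters the nucleus, where it joins the DNA-binding protein RBPJ and a Mastermind co-activator and turns on genes such as those of the *Hes* and *Hey* families of transcriptional repressors. In the mammary gland the pathway is known for its part in directing progenitor cells towards the luminal fate.

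Values are estimated counts per 1000000 (CPM) after TMM normalization, in the order of the library numbers, with the mean ± SD of 3 libraries. A gene was called changed at a log2 difference of more than 0.5, up or down, where the quasi-likelihood test of edgeR gave an adjusted p under 0.01. The libraries held from 5972457 to 11876435 estimated counts, so that 3 counts stood for 0.253 to 0.502 CPM before normalization. Spearman correlations were at least 0.9777 within a group and at most 0.9576 between groups, and no label gives a batch. EPR RNA itself stood at 0.05 ± 0.09 CPM in mock, 24.9 ± 1.87 CPM in EPR and 4.24 ± 0.48 CPM in EPRSTOPE libraries, which follows the labels, and the EPR libraries carried 5.87 times the EPR RNA of the EPRSTOPE libraries. Every difference between EPR and EPRSTOPE below therefore goes with the peptide, the amount of transcript and any difference between transfectant pools, which cannot be told apart here. Differences from mock cells likewise go with both the transgene and the pool. Of 10 epithelial markers, 4 stayed under 1 CPM in every library, *Cdh1* was at 0.84 ± 0.46 CPM in mock cells against 556 ± 13.7 and 403 ± 22.8 CPM in the EPR and EPRSTOPE transfectants, and the summed markers ran from 3690 to 4160 CPM in mock, 9490 to 10600 CPM in EPR and 10700 to 11000 CPM in EPRSTOPE libraries. This sum was mostly *Krt8* (2110, 5260 and 5980 CPM on average) and *Krt18* (1530, 3750 and 4140 CPM). Like *Cdh1*, *Krt19* (280, 584 and 385 CPM), *Ocln* (0.32, 11.6 and 6.87 CPM) and *Epcam* (0, 3.63 and 0.11 CPM) were highest in EPR libraries. The 8 luminal markers summed to 3440 to 3880, 8330 to 9480 and 9940 to 10200 CPM, mostly *Krt8* and *Krt18*, with *Foxa1* at 8.15, 0.21 and 0.07 CPM on average and *Esr1* at 0 in every library. The 7 basal markers summed to 17.1 to 20.7, 59.3 to 66.8 and 39.6 to 42.4 CPM, with *Mylk* at 7.84, 61.5 and 38.1 CPM, *Acta2* at 10.1, 1.17 and 0.80 CPM and *Krt14* at 0.90, 0 and 2.32 CPM on average, and *Trp63* at 0 in every library. The summed markers of endothelial cells ran from 11.2 to 12.6 CPM in mock, 12 to 15.7 CPM in EPR and 11.7 to 17.4 CPM in EPRSTOPE libraries, those of pericytes and smooth muscle from 8.39 to 11.1, 0.96 to 2.02 and 1.71 to 2.37 CPM, and those of fibroblasts and immune cells stayed under 5 CPM everywhere. Of the 8 pericyte and smooth muscle markers, only *Mcam* passed the filter, at 8.61, 0.45 and 0.53 CPM on average. *Pdgfrb* was at 0.14, 0.03 and 0.82 CPM, and 6 of the 8 stayed under 1 CPM in every library. The part of these shifts in the Notch results was not tested.

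In EPR cells, 4 of the 10 members rose and 1 fell against mock cells, while in EPRSTOPE cells 3 rose and 0 fell (1, *Jag1*, was lower at an unadjusted p under 0.05, and DESeq2 and limma also called 0). *Notch1*, *Jag2* and *Dll1* rose in both, *Notch4* rose and *Hey1* fell in EPR cells, and *Notch1* and *Jag2* were also higher in EPR than in EPRSTOPE cells. In bulk RNA, a change in the number of cells that hold a transcript and a change in its amount per cell cannot be told apart. The test reached 8 members, since *Notch3* and *Heyl* did not have 1 CPM in 3 libraries. *Dll1* and *Notch4* passed this filter through the transfectants in which they were high, and *Hey1* through the mock and EPRSTOPE libraries, so these 3 could hardly be tested without differing. Of all 15370 genes tested, 28.1% were called in EPR against mock cells, 28% in EPRSTOPE against mock cells and 13.2% in EPR against EPRSTOPE cells (15.2%, 15.6% and 6.86% higher; 12.9%, 12.4% and 6.35% lower). The median log2 fold change of the 8 members was 0.74, 0.27 and 0.06 in the 3 comparisons, but 0.06, -0.01 and 0.08 over the 5 with a mean of at least 5 CPM, which leaves these 3 out, against -0.01, -0.04 and 0.01 over all genes tested. Groups did not overlap for 6, 4 and 4 of these 8 members, beside 57.8%, 56.5% and 43% of all genes tested. The first and the second comparison share the mock libraries.

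**Figure D1:**
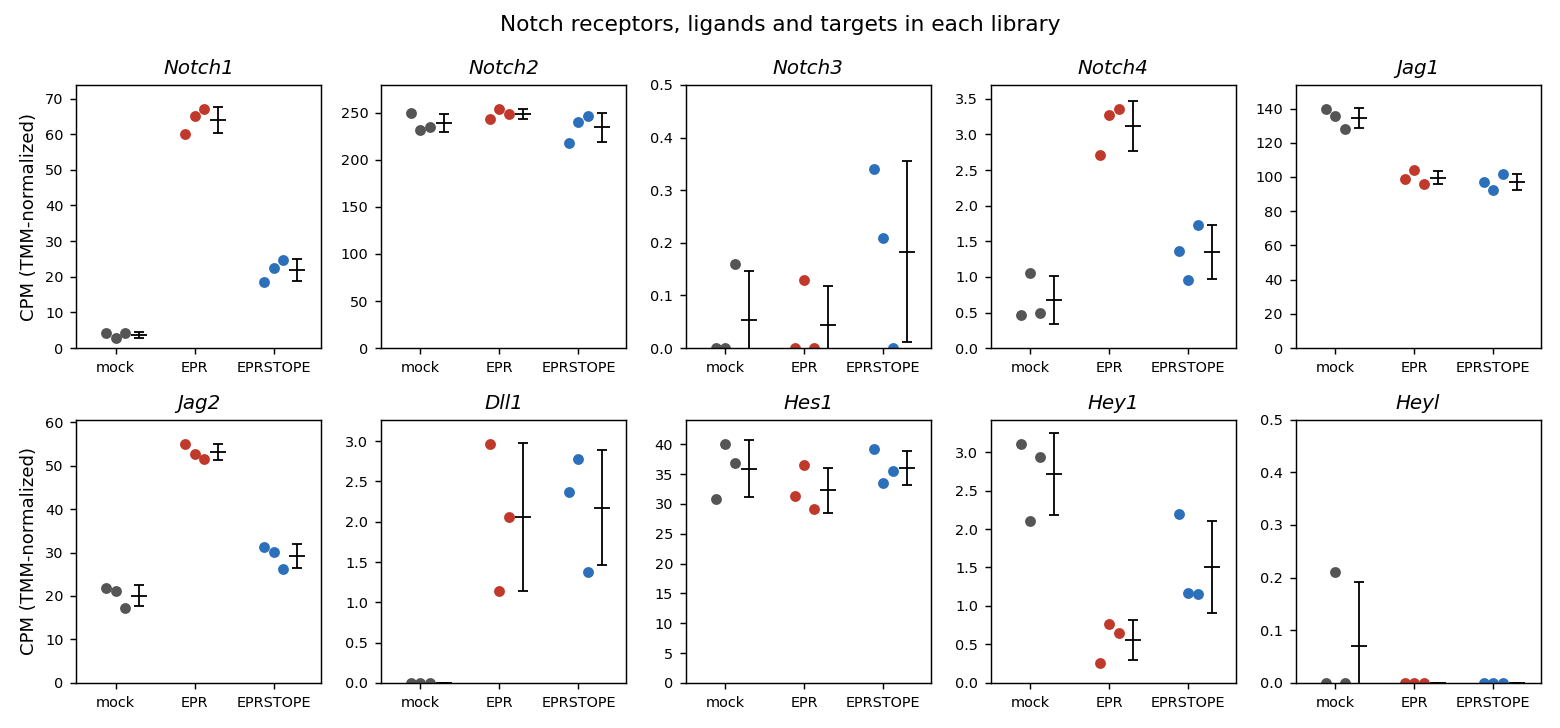
Level of each member in the 9 libraries, in TMM-normalized CPM on axes that start at 0. Coloured points are libraries and the black mark with its bar is the group's mean ± SD (n = 3, cut at 0). *Notch1* and *Jag2* form 3 separate levels, with EPR libraries at 60.05 to 67.10 and 51.58 to 55.07 CPM, *Jag1* is lower in all 6 transfected libraries, and *Notch2* and *Hes1* overlap between groups.

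*Notch1* (ENSMUSG00000026923.15) encodes the receptor best known from T-cell development, and lies on the minus strand at chr2:26457903-26516663 of GRCm38, with 34 exons in its main transcript. Its levels were 4.19, 2.74 and 4.23 CPM in mock cells, 60.05, 65.03 and 67.10 CPM in EPR cells and 18.64, 22.42 and 24.62 CPM in EPRSTOPE cells. Every EPR library lay above every EPRSTOPE library, and every EPRSTOPE library above every mock library. In EPR cells the mean rose 17.2-fold, from 3.72 ± 0.85 to 64.1 ± 3.62 CPM (SD, n = 3), which is 4.10 on the log2 scale (standard error 0.15, 95% interval 3.76 to 4.44, adjusted p = 1.1e-09 from edgeR). In EPRSTOPE cells it rose 5.88-fold to 21.9 ± 3.03 CPM (SD, n = 3), or by 2.56 in log2 (standard error 0.16, 95% interval 2.21 to 2.92, edgeR adjusted p = 8.1e-08). The direct comparison gave 2.93-fold more *Notch1* in EPR than in EPRSTOPE cells (log2 1.54, standard error 0.13, edgeR adjusted p = 3.1e-06). *Notch1* thus held an intermediate level in the cells whose EPR transcript was both less abundant and mutated. For this and every other member, the exact two-sided permutation test of 3 against 3 libraries cannot go below p = 0.1, and it gave 0.1 wherever groups did not overlap.

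The main transcript, *Notch1-201* of 9488 nt, held 77.1% of the gene's estimated counts in mock libraries, 92.0% in those of EPR and 92.1% in those of EPRSTOPE. Its TPM, which is corrected for length, was 0.235, 0.198 and 0.237 in mock, 4.78, 5.56 and 4.94 in EPR and 1.62, 2.09 and 1.59 in EPRSTOPE libraries, again with no overlap. The other annotated transcripts are mostly short, and 8 of the 11 are under 500 nt. In mock libraries these 8 received 1.0 to 10.5 counts but 74.4% to 94.6% of the gene's TPM, because TPM divides by length. When the counts were scaled back from TPM over all transcripts, the log2 fold changes of *Notch1* were 1.70, 0.67 and 1.03 in the comparisons of EPR with mock, of EPRSTOPE with mock and of EPR with EPRSTOPE, and none passed the test (edgeR adjusted p = 0.026, 0.37 and 0.23). Without the transcripts under 500 nt, an alternative chosen after seeing the data, the same scale gave 4.56, 2.98 and 1.58, all called (edgeR adjusted p = 2.1e-09, 6.2e-08 and 1.1e-05).

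*Notch2* (ENSMUSG00000027878.11, plus strand, chr3:98013527-98150361), a receptor of many epithelia, was measured at 249.79, 231.51 and 234.66 CPM in mock, 243.60, 253.95 and 248.20 CPM in EPR and 217.35, 239.84 and 246.35 CPM in EPRSTOPE cells. The 3 groups overlapped. The log2 fold changes were 0.06 in EPR against mock, -0.02 in EPRSTOPE against mock and 0.08 in EPR against EPRSTOPE cells, and none passed the test (edgeR adjusted p = 0.47, 0.78 and 0.34). Their 95% intervals, -0.07 to 0.19, -0.16 to 0.11 and -0.05 to 0.22, leave room only for small differences. *Notch2* was the receptor with the highest level per length: its main transcript had 16.0 ± 1.53 TPM in mock cells, against 0.223 ± 0.022 TPM for that of *Notch1* (SD, n = 3).

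*Notch4* (ENSMUSG00000015468.14, plus strand, chr17:34564268-34588503), known as the receptor of endothelial cells, was near the detection limit in mock cells, with 3, 10 and 6 counts, or 0.47, 1.06 and 0.49 CPM. EPR libraries held 31, 26 and 36 counts (2.71, 3.28 and 3.36 CPM) and EPRSTOPE libraries 8, 9 and 15 counts (1.36, 0.96 and 1.73 CPM). EPR libraries stood above all others, while EPRSTOPE and mock libraries overlapped. *Notch4* rose 4.65-fold in EPR cells (log2 2.18, standard error 0.41, 95% interval 1.29 to 3.07, edgeR adjusted p = 0.0008). The log2 fold change was 0.98 in EPRSTOPE against mock (95% interval 0.01 to 1.95, edgeR adjusted p = 0.091) and 1.20 in EPR against EPRSTOPE cells (95% interval 0.37 to 2.04, edgeR adjusted p = 0.032), and neither passed the threshold. With counts scaled from TPM, the EPRSTOPE value became 3.08 and passed (edgeR adjusted p = 0.0053). Of 6 endothelial markers, *Pecam1* passed the filter, at 11.3 ± 0.317, 12.4 ± 2.15 and 13.4 ± 2.26 CPM in mock, EPR and EPRSTOPE libraries (SD, n = 3), and was called in none of the 3 comparisons. *Cdh5*, which did not pass, held 0, 0 and 0 counts in mock, 12, 8 and 7 in EPR and 1, 9 and 3 in EPRSTOPE libraries, and the part of endothelial transcripts in the *Notch4* result was not tested.

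*Notch3* (ENSMUSG00000038146.7, minus strand, chr17:32120820-32166852), a receptor typical of vascular smooth muscle, received 0, 0 and 2.3 counts in mock, 0, 1.0 and 0 counts in EPR and 2.0, 2.0 and 0 counts in EPRSTOPE libraries. All values were below 3 counts, so no difference was detectable at this depth.

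Set side by side per length, the receptors took different proportions in the 3 groups. *Notch1* made up 1.5%, 1.1% and 1.56% of the summed TPM of the 4 main transcripts in mock libraries, 20.9%, 20.5% and 21.6% in EPR libraries and 8.4%, 9.0% and 9.39% in EPRSTOPE libraries. *Notch2* made up 98.1% ± 0.0849 in mock libraries, against 77.6% ± 0.574 with EPR and 90.3% ± 0.459 with EPRSTOPE (SD, n = 3), and remained the leading receptor transcript in all 9 libraries. The summed receptor TPM was 16.3 ± 1.52 for mock, 24.3 ± 2.49 for EPR and 19.8 ± 3.18 for EPRSTOPE (SD, n = 3). EPR libraries, at 22.8 to 27.2 TPM, did not overlap with mock libraries, at 15.2 to 18 TPM, but overlapped with EPRSTOPE libraries, at 16.9 to 23.2 TPM.

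**Figure D2:**
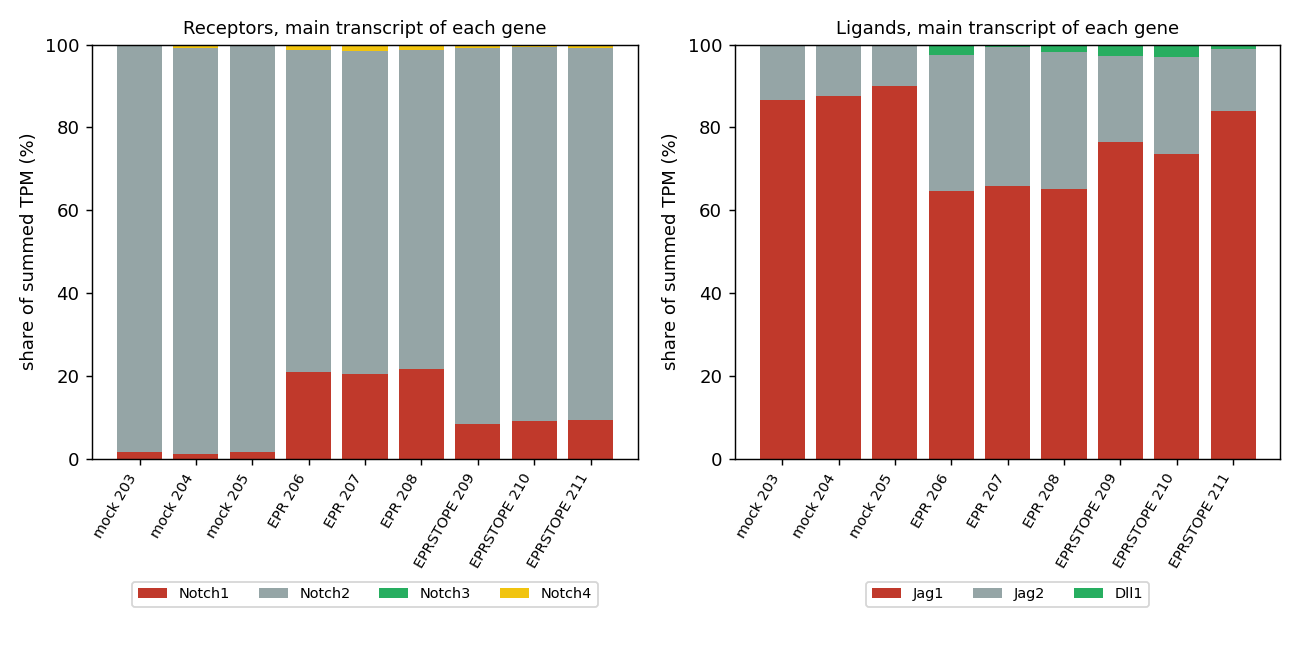
Share of each receptor (left) and ligand (right) in the summed TPM of the main transcripts of its class, in percent, with 1 bar per library. *Notch1* takes 20.5% to 21.6% of the receptor sum in EPR libraries against 1.1% to 1.56% in mock libraries, and *Jag2* takes 32.9% to 33.6% of the ligand sum in EPR libraries against 10.1% to 13.3% in mock libraries.

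*Jag2* (ENSMUSG00000002799.6, minus strand, chr12:112907819-112929776), a Jagged ligand, was the other member with 3 separate levels. It was measured at 21.75, 21.21 and 17.26 CPM in mock, 55.07, 52.78 and 51.58 CPM in EPR and 31.34, 30.01 and 26.12 CPM in EPRSTOPE cells. No group overlapped with another. *Jag2* rose 2.65-fold in EPR cells (log2 1.41, standard error 0.10, 95% interval 1.18 to 1.64, edgeR adjusted p = 4e-07) and 1.45-fold in EPRSTOPE cells (log2 0.54, standard error 0.11, 95% interval 0.31 to 0.78, edgeR adjusted p = 0.0012). It was 1.82-fold higher in EPR than in EPRSTOPE cells (log2 0.87, standard error 0.10, edgeR adjusted p = 5.5e-05). The difference between EPRSTOPE and mock cells was close to the fold cut-off. Its call was lost without mock library 205 (0.43), without EPRSTOPE library 209 (0.49), with protein-coding transcripts only (0.43, edgeR adjusted p = 0.043), with counts scaled from TPM (0.53, edgeR adjusted p = 0.11) and on that scale without transcripts under 500 nt (0.80, edgeR adjusted p = 0.015). In the main transcript, *Jag2-201*, EPRSTOPE library 211 had 2.11 TPM, inside the mock range of 1.79 to 2.64 TPM, while EPRSTOPE libraries 209 and 210 had 4.0 and 4.86 TPM and EPR libraries 6.42 to 8.16 TPM. With counts scaled from TPM, EPR against EPRSTOPE cells gave 0.51, and 0.19 without the transcripts under 500 nt, with the call lost in both (edgeR adjusted p = 0.18 and 0.62).

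*Jag1* (ENSMUSG00000027276.7, minus strand, chr2:137081456-137116644), the most abundant ligand per length, was lower in both transfectants. Its levels were 139.81, 135.49 and 128.12 CPM in mock, 98.98, 104.05 and 96.06 CPM in EPR and 96.90, 92.15 and 101.49 CPM in EPRSTOPE cells. All 6 transfected libraries lay below the 3 mock libraries, and EPR and EPRSTOPE libraries overlapped. The log2 fold change was -0.43 in EPR against mock (95% interval -0.57 to -0.30, edgeR adjusted p = 0.00011) and -0.47 in EPRSTOPE against mock cells (95% interval -0.61 to -0.34, edgeR adjusted p = 5.4e-05), so both passed the p threshold and stayed inside the fold cut-off. Of all genes tested, 37.4% and 36.9% had an adjusted p under 0.01 at any fold in these comparisons. In EPRSTOPE against mock cells the value reached the cut-off under upper-quartile scaling (-0.50), without EPRSTOPE library 211 (-0.51) and without mock library 205 (-0.52). The 20 nearest tested genes had median log2 fold changes of -0.36 and -0.49, with 7 and 8 of them called lower. Called lower over all genes tested were 12.9% and 12.4%. Whether *Jag1* moved with its surroundings was not tested.

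*Dll1* (ENSMUSG00000014773.13, minus strand, chr17:15367354-15376872), a Delta-like ligand, had no count in any of the 3 mock libraries. EPR libraries held 33.9, 9.0 and 21.9 counts (2.97, 1.14 and 2.06 CPM) and EPRSTOPE libraries 14, 26 and 12 counts (2.37, 2.78 and 1.38 CPM). It was thus detected in all 6 transfected libraries, whose 2 groups overlapped. Against a floor of 3 counts per mock library, a mean of 0.342 CPM, *Dll1* was at least 6.0-fold higher in EPR and at least 6.36-fold higher in EPRSTOPE cells (edgeR adjusted p = 0.00017 for each). The log2 difference between EPR and EPRSTOPE cells was -0.06 (95% interval -1.08 to 0.96, edgeR adjusted p = 0.99), so the interval leaves room for differences up to about these bounds.

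Per length, *Jag2* made up 11.9% ± 1.63 of the summed TPM of the 3 main ligand transcripts in mock cells, 33.2% ± 0.325 with EPR and 19.8% ± 4.34 with EPRSTOPE (SD, n = 3), and *Jag1* the larger share in every library. *Dll1* reached 1.57% ± 0.887 with EPR and 2.2% ± 1.08 in EPRSTOPE cells. The ligand sum itself overlapped between all groups, with 19.3 ± 2.0, 21.6 ± 2.5 and 18 ± 3.48 TPM in mock, EPR and EPRSTOPE cells (SD, n = 3). The ligand pool thus differed in its makeup while the sums overlapped.

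Of the 2 targets that could be tested, 0 were called higher in any comparison by edgeR, DESeq2 or limma, and 0 were higher at an unadjusted p under 0.05. Over all genes tested, edgeR called 15.2%, 15.6% and 6.86% higher in the 3 comparisons, so 0 of 2 is near those shares. *Hes1* (ENSMUSG00000022528.7, plus strand, chr16:30064384-30067796), the canonical Notch target, was at 30.76, 40.10 and 36.87 CPM in mock, 31.25, 36.49 and 29.16 CPM in EPR and 39.13, 33.42 and 35.44 CPM in EPRSTOPE cells. The groups overlapped in every comparison. The log2 fold changes were -0.16 in EPR against mock (95% interval -0.42 to 0.09), -0.01 in EPRSTOPE against mock (-0.26 to 0.25) and -0.16 in EPR against EPRSTOPE cells (-0.41 to 0.10), with edgeR adjusted p = 0.28, 0.97 and 0.36. A rise beyond the fold cut-off of 0.5 lies outside all 3 intervals.

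*Hey1* (ENSMUSG00000040289.8, minus strand, chr3:8663359-8667256), a repressor of the *Hey* family, was lowest in EPR cells. Its levels were 3.11, 2.11 and 2.93 CPM in mock, 0.26, 0.76 and 0.65 CPM in EPR and 2.20, 1.17 and 1.15 CPM in EPRSTOPE cells. EPR libraries, which held 3, 6 and 7 counts, lay below all others, and EPRSTOPE libraries overlapped with mock libraries. *Hey1* fell in EPR cells, with a mean 4.87-fold higher in mock cells (log2 -2.29, standard error 0.46, 95% interval -3.30 to -1.29, edgeR adjusted p = 0.0013). The value was -0.88 in EPRSTOPE against mock (95% interval -1.79 to 0.03, edgeR adjusted p = 0.11) and -1.41 in EPR against EPRSTOPE cells (95% interval -2.48 to -0.35, edgeR adjusted p = 0.047), both short of the threshold. With counts scaled from TPM the EPR call was lost, at -1.55, and at -1.58 without the transcripts under 500 nt (edgeR adjusted p = 0.081 and 0.063).

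*Heyl* (ENSMUSG00000032744.4, plus strand, chr4:123233556-123249875), the third member of that family, received 2 counts in mock library 204 and none elsewhere, which is below the floor of 3 counts.

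**Figure D3:**
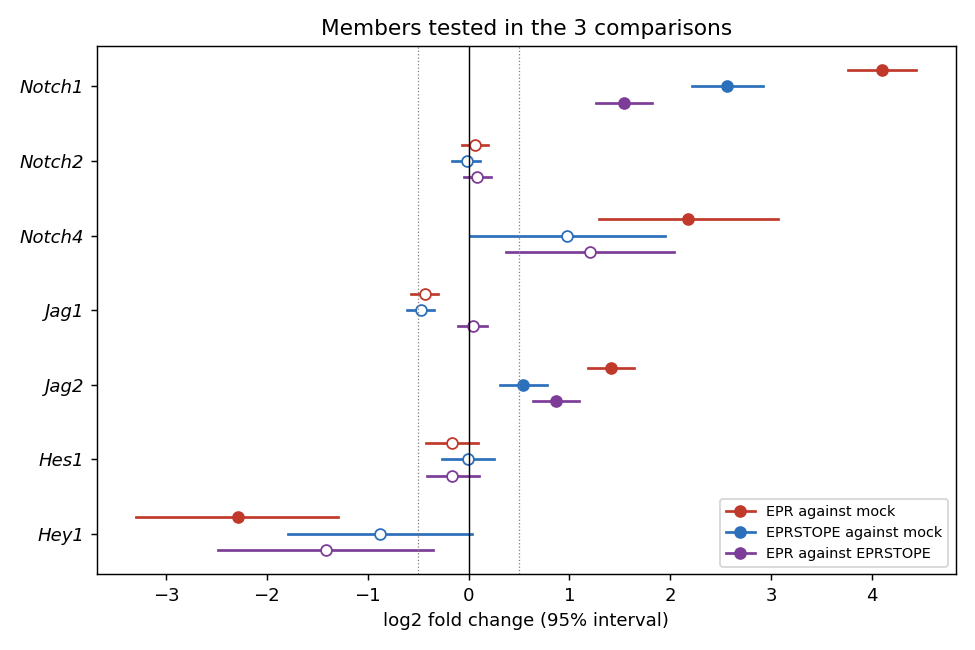
Log2 fold change of 7 tested members with its 95% interval, for EPR and EPRSTOPE, each against mock, and for EPR against EPRSTOPE. Filled points were called, open points were not, and dotted lines mark 0.5 in either direction; *Dll1*, at 0 in mock cells, is not drawn. *Notch1* and *Jag2* lie right of the lines in all 3 comparisons, and *Hes1* and *Notch2* lie around 0.

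The rest of the pathway was read from lists of its machinery, 71 genes in 8 groups, of which 70 are in the files and 59 passed the filter. In EPR against mock cells 14 rose and 6 fell (33.9% of those tested), in EPRSTOPE against mock cells 16 rose and 5 fell (35.6%), and in EPR against EPRSTOPE cells 2 were higher and 3 lower (8.47%), beside 28.1%, 28% and 13.2% of all genes. Their median log2 fold changes were 0.07, 0.12 and 0.00, close to those of all genes. Raising the fold cut-off to a log2 of 1 left 8, 11 and 2 calls, and the share of all genes at that cut-off was not counted.

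Among 8 further targets tested, 4 rose and 1 fell against mock cells in each transfectant (62.5%, beside 28.1% and 28% of all genes called). This list, like the other pathway lists, was chosen with earlier results of these data known, so its share is a description and not a test. *Cdkn1a*, a cyclin-dependent kinase inhibitor with many inputs besides Notch, rose from 7.29 to 96.9 CPM in EPR and 79.8 CPM in EPRSTOPE cells (log2 3.71 and 3.44). The study itself reports its rise with both EPR and EPRSTOPE. *Nrarp*, a feedback inhibitor of Notch, rose from 1.75 to 5.81 and 6.89 CPM (log2 1.66 and 1.91, edgeR adjusted p = 0.0028 and 0.0012), and *Hes6*, a *Hes* family member that counteracts *Hes1*, rose from 8.94 to 27.7 and 19.5 CPM (log2 1.64 and 1.12). *Snai2*, a transcription factor of epithelial-mesenchymal transition, fell from 6.83 to 2.44 and 3.35 CPM (log2 -1.50 and -1.03). The *Nrarp* call in EPR cells was lost without EPR library 206 (1.43) and without mock library 205 (1.64). The *Snai2* call in EPRSTOPE cells was lost without EPRSTOPE library 209 (-1.0) or 211 (-0.94), without mock library 204 (-0.99) or 205 (-1.0), and on both TPM scales (-0.84 and -0.86).

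Called were 30% and 50% of 10 genes for receptor cleavage in EPR and EPRSTOPE against mock cells, beside 28.1% and 28% of all genes tested (12.9% and 12.4% called lower). Of these 10 genes, 3 rose in EPR and 5 in EPRSTOPE cells, and 0 fell (0 at an unadjusted p under 0.05, and 0 by DESeq2 or limma). They include *Adam10*, the protease of the first ligand-dependent cut, which went from 97.2 to 166 and 153 CPM (log2 0.77 and 0.66), and the gamma-secretase subunit *Ncstn*, from 48.7 to 79.8 and 84.5 CPM (log2 0.71 and 0.80). *Psen2*, a catalytic subunit of the same complex, rose from 2.21 to 6.78 CPM in EPR cells (log2 1.56, edgeR adjusted p = 0.0021), a call lost without EPR library 207 (1.41), without mock library 204 (1.53) and on both TPM scales (1.15 and 1.25). In EPR against EPRSTOPE cells edgeR, DESeq2 and limma called 0 of this list, and 4 were lower at an unadjusted p under 0.05. The share of all genes that edgeR called in that comparison was 13.2%.

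The enzymes that glycosylate the receptors, of which 8 were tested, moved both ways. *Poglut1*, an O-glucosyltransferase, rose from 21.5 to 42.2 CPM in EPR and 64.2 CPM in EPRSTOPE cells (log2 0.97 and 1.57), and was lower in EPR than in EPRSTOPE cells (log2 -0.61, edgeR adjusted p = 0.00034). *Lfng*, the Fringe enzyme that shifts receptors from Jagged towards Delta-like ligands, fell from 28.8 to 17.6 CPM in EPR cells (log2 -0.70, edgeR adjusted p = 0.0011) and was at 31.0 CPM in EPRSTOPE cells. The direct comparison gave -0.81 (edgeR adjusted p = 0.00088). On the TPM scale with and without transcripts under 500 nt, the *Lfng* calls were lost against mock (-0.68 and -0.69, edgeR adjusted p = 0.022 and 0.015) and against EPRSTOPE cells (-0.61 and -0.59, edgeR adjusted p = 0.07 and 0.065). So was the *Poglut1* call in EPR against EPRSTOPE cells (-0.55 and -0.53, edgeR adjusted p = 0.018 and 0.017). With protein-coding transcripts only, *Poglut1* was not called in EPR against mock (0.76) or EPR against EPRSTOPE cells (-0.82). *Eogt* rose from 12.9 to 31.6 and 29.1 CPM, and *Gxylt2* fell from 255 to 157 CPM in EPR cells, a call lost with counts scaled from TPM (-0.49).

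Among 5 ubiquitin ligases listed under ligand endocytosis, *Neurl3* rose from 35.3 to 268 CPM in EPR and 190 CPM in EPRSTOPE cells (log2 2.92 and 2.42, edgeR adjusted p = 5e-10 and 1.9e-09). Whether the product of *Neurl3* acts on Notch ligands was not tested. *Neurl1a* rose from 12 to 19.4 CPM in EPR cells (log2 0.69, edgeR adjusted p = 0.00042). *Neurl1a* was at 17.2 CPM in EPRSTOPE cells, where its call (log2 0.51, edgeR adjusted p = 0.0042) lay at the fold cut-off and was lost in 9 of 18 alternatives: limma (0.47), upper-quartile scaling (0.48), no filter and the 5 CPM filter (0.49 each), protein-coding transcripts only (0.46), and leaving out EPRSTOPE library 209 (0.40) or mock library 203 (0.49), 204 (0.47) or 205 (0.54). In the nuclear activator complex of 7 genes, the co-activators *Maml2* (12.2 to 22.1 CPM) and *Kat2b* (31.8 to 57.3 CPM) rose and *Snw1* (118 to 79.4 CPM) fell in EPR cells, and *Maml3* rose from 8.36 to 18.3 CPM in EPRSTOPE cells. With counts scaled from TPM the calls of *Maml2* (0.95), *Kat2b* (0.67) and *Snw1* (-0.37) were lost, those of *Maml2* (0.93) and *Snw1* (-0.39) also without transcripts under 500 nt. Of 11 co-repressors, 2 fell in EPR and 3 in EPRSTOPE cells (18.2% and 27.3%, beside 28.1% and 28% of all genes called). By edgeR, DESeq2 and limma 0 rose, with 0 and 1 higher at an unadjusted p under 0.05. The shares of all genes that edgeR called higher were 15.2% and 15.6%. *Tle1*, of the Groucho family, fell from 46.5 to 21.0 and 30.8 CPM (not called in EPRSTOPE cells with protein-coding transcripts only, -0.45), and *Tle4* from 18.2 to 6.27 CPM in EPRSTOPE cells, where it was also below the 15.4 CPM of EPR cells (log2 1.29 for EPR against EPRSTOPE).

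Of 9 genes for receptor turnover and inhibition, 0 were called in EPR cells by edgeR, DESeq2 or limma, and 2 had an unadjusted p under 0.05 (*Numbl* higher, *Dtx4* lower). Of all genes tested, 28.1% were called in that comparison. In EPRSTOPE cells *Dtx4*, a ubiquitin ligase, fell from 32.1 to 9.92 CPM (log2 -1.71), also below the 23.8 CPM of EPR cells (log2 1.28), and *Numbl* rose from 9.93 to 19.2 CPM (log2 0.93), a call lost with counts scaled from TPM (0.54) and with protein-coding transcripts only (1.05). Of the other ligands only *Dlk2*, a Delta-like homologue, passed the filter, and it rose from 3.83 to 6.68 CPM in EPR cells (log2 0.80, edgeR adjusted p = 0.0032). Its call was lost without EPR library 206 (0.74), without mock library 203 (0.75), 204 (0.82) or 205 (0.80), with no filter (0.79) and on both TPM scales (0.88 and 0.84).

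**Figure D4:**
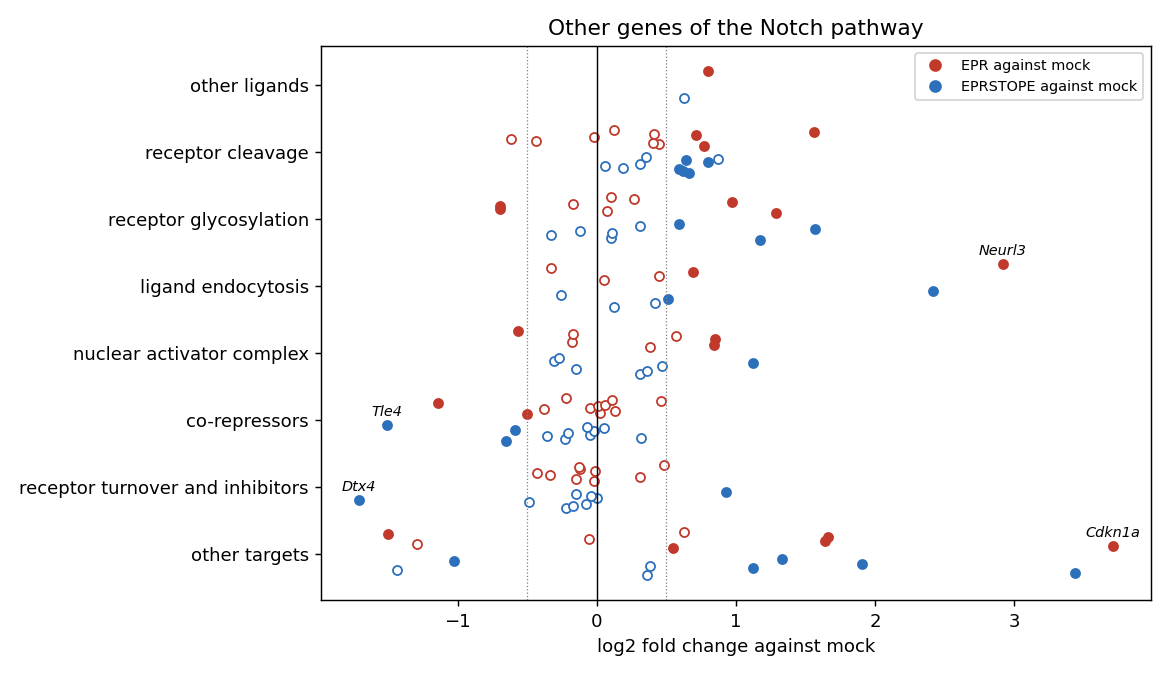
Log2 fold change against mock cells of the 59 tested genes of the 8 pathway lists, with 1 point per gene and transfectant. Filled points were called, open points were not, and dotted lines mark 0.5 in either direction. *Cdkn1a* and *Neurl3* lie farthest right, at 3.71 and 2.92 in EPR cells, and *Dtx4* and *Tle4* farthest left in EPRSTOPE cells, at -1.71 and -1.51.

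The neighbouring genes of the called members had smaller median changes than the members. The 20 nearest tested genes around *Notch1* moved by a median log2 of 0.06 in EPR and 0.04 in EPRSTOPE against mock cells, and those around *Jag2* -0.18 and 0.10. Around *Notch1*, 5 and 3 of the 20 were called higher and 0 and 1 lower. Around *Jag2*, 6 were called higher in each comparison and 3 and 2 lower, with upper quartiles of 0.97 and 0.79. In EPRSTOPE cells that quartile lay above the 0.54 of *Jag2* itself. The shares over all genes tested were 15.2% and 15.6% higher and 12.9% and 12.4% lower. Over 469 other tested genes of chromosome 12, which holds *Jag2*, the medians were -0.27 and -0.01. In EPR against EPRSTOPE cells the median was -0.2 around *Jag2* and -0.3 over chromosome 12. Around *Dll1* the medians against mock cells were -0.15 and -0.10, and around *Hey1*, with 17 such genes, 0.14 and -0.17. Around *Notch4* they were 0.23 and 0.53, with 6 of 20 genes called higher in EPR and 9 of 20 in EPRSTOPE cells, and 0 lower. Neighbouring genes were read for the members only, not for the pathway lists. Whether *Dtx4* and *Tle4*, the 2 pathway genes called higher in EPR than in EPRSTOPE cells, moved with their surroundings was therefore not tested. *Notch1* overlaps *Gm13568* on the opposite strand, which was at 5.70, 5.31 and 5.78 CPM in mock, EPR and EPRSTOPE cells and was called in no comparison. The library kit keeps strand, but whether the quantification used it is not given in the sources used here, so overlapping reads may be shared.

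Promoters of the 2 members with 3 separate levels are shown because both moved with the EPR transgene in the same order. Each is 300 bases of RefSeq sequence on GRCm38.p6, minus strand, written 5′ to 3′, at chr2:26503773-26504072 for *Notch1* and chr12:112929446-112929745 for *Jag2*. The 50 bases after the annotated start are in capitals and the 250 bases before it in lower case. Both windows lie inside the gene spans given above, which on the minus strand begin at 26516663 and 112929776. By those spans, the bases in lower case are not upstream of the gene.
Notch1: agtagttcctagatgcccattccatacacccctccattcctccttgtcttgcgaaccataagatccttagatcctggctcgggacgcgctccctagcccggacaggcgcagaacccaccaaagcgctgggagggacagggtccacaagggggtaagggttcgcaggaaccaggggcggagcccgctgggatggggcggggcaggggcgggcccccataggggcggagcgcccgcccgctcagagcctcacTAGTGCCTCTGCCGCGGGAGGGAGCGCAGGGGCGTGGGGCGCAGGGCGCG
Jag2: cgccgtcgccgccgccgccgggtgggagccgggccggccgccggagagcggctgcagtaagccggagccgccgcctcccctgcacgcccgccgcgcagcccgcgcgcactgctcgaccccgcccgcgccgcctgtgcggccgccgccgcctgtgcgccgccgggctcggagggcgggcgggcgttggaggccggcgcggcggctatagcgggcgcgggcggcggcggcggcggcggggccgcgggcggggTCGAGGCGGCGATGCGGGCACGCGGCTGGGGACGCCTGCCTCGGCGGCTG

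The *Notch1* window had 68.3% GC and 23 CpG and the *Jag2* window 86% GC and 63 CpG, against a median of 52.7% GC and 7 CpG over all 32851 promoters of the table. The RBPJ motif GTGGGAA and the shorter TGGGAA that it contains were searched on both strands. Neither was found in any of the 8 promoters of the 7 members with an entry, while 6.38% and 25.6% of all promoters hold them, which says only that these letters are not in these windows.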

How the data were processed

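RNA-Seq was analysed from 9 NMuMG libraries, 3 per group, with groups taken from the genotype labels and replicates named by the numbers in the titles. The authors quantified the reads with kallisto 0.43.1 on Gencode vM15 transcripts (GRCm38.p5, from the methods and the submitters' processing notes) and deposited, per transcript, estimated counts without normalization. They also deposited TPM values, in which the counts are divided by effective length and scaled to 1000000 per library. Labels and methods name different sequencers.

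Estimated counts were summed per gene symbol and rounded. Genes with at least 1 CPM in 3 libraries, 15370 in all, were tested by edgeR 4.0.16 in R 4.3.3 (TMM, 1 factor with 3 levels, all 9 libraries) with Benjamini-Hochberg adjustment over all of them. Exact permutation tests used log2(CPM + 0.5). On simulated counts, edgeR recovered 145 of 200 genes changed by a log2 of 1.5 in EPR against mock, 126 of 130 at 10 CPM or more, with 1 false call. DESeq2 1.42.0, limma 3.58.1 with voom and other settings were tried as alternatives. Members and pathway lists were chosen with earlier results of these data known. From each pathway list, at most the 4 genes with the largest absolute log2 fold change were named, among those called in any comparison. Marker lists and EPR served as checks of the labels. Python 3.11.15 did the rest.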

Additional observations from a re-analysis of the deposited data

How the results depend on the processing

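No paired analysis was possible because the groups share no replicate numbers. Of 423 recomputed member values, 394 kept their direction and side of the threshold, 12 lost a call, 4 gained one and 13 changed sign, all of the last among differences near 0: *Notch2* in EPRSTOPE against mock (0.15 with counts scaled from TPM, 0.10 on that scale without transcripts under 500 nt, -0.06 to 0.03 without single libraries), *Hes1* in the same comparison (0.01 with only the compared groups, 0.03 with protein-coding transcripts only, -0.11 to 0.07 without single libraries) and *Dll1* in EPR against EPRSTOPE (-0.42 to 0.21 without single libraries). Against 5 members called in EPR against mock, a filter of 5 CPM called 2 of 5 tested and counts scaled from TPM called 3. Over all genes, the main setting called 4316 of 15370 there, the 5 CPM filter 3799 of 11221 and counts scaled from TPM 3053 of 15418. Against 2 called in EPR against EPRSTOPE, a log2 cut-off of 1 left 1, an adjusted p under 0.05 with no fold cut-off gave 4, counts scaled from TPM 0, and those without transcripts under 500 nt 1. For pathway genes, the cut-off of 1 gave 8, 11 and 2 and the looser threshold 32, 38 and 19 calls in the 3 comparisons, against 20, 21 and 5. In EPR against EPRSTOPE, pathway calls were 2 on both TPM scales, 8 with no filter and 4 to 8 without single libraries, with 8 without EPRSTOPE library 209. All-gene calls in that comparison were 2031 of 15370 in the main setting and 2508 of 32553 with no filter. They were 940 of 15418 with counts scaled from TPM, and 1227 of 15203 on that scale without transcripts under 500 nt. Shares of all genes at the changed cut-offs were not counted. Protein-coding transcripts only and the removal of short transcripts were chosen after seeing the data. The causes of these changes were not tested. At 3 counts per library, *Notch3* and *Heyl* were below what this depth can compare, and *Hey1* and *Notch4* rest on few counts.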
